A study of Homo sapiens with 30 samples.

Results

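ERG binding was compared between VCaP cells grown with the PI3K inhibitor LY294002 and VCaP cells grown with its DMSO vehicle. VCaP is an established line from a human prostate cancer metastasis that makes ERG from its own TMPRSS2-ERG rearrangement, so ERG is not a transgene in either arm. Cells of the inhibitor arm received 1 uM LY294002 on days 1, 3 and 6, and those of the vehicle arm received DMSO on the same days. Each arm is 1 ERG ChIP-seq library made from DNA pooled over 3 ChIP experiments, so no replicate error could be had, and no test between the arms was made. The members are the MACS2 peaks of both lists on chromosomes 1 to 22 and X, 5870 for vehicle and 12985 for LY294002, or 18855 of the 190256 peaks in the 6 lists of the series used here.

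The list taken as LY294002 needs a caution. The deposit attaches it to the label of the vehicle input, whereas its own name and the header written by the peak caller name an ERG ChIP of LY294002-treated cells with an LY294002 input. The file under the label of the LY294002 ERG ChIP bears the name of an RWPE1 open chromatin list and was not used. The name and header were followed throughout. The growth and treatment text attached to the VCaP labels describes RWPE1 cells, and the culture and dosing above are from the study's methods and the treatment label.

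ERG is an ETS transcription factor that is normally made in endothelial and some blood cells, and its ETS domain recognises DNA around a GGAA core. In prostate cancer the rearrangement places ERG under the androgen-responsive TMPRSS2 promoter. PI3K makes the lipid signal that activates AKT, AKT keeps the forkhead factors of the FOXO family out of the nucleus, and LY294002 blocks the catalytic site of PI3K and of some related kinases. The comparison asks whether the set of ERG sites in a cell line with its own fusion depends on PI3K.

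A peak was called shared when it overlapped a peak of the other list by at least 1 bp, lost when a vehicle peak had no LY294002 peak, and gained when an LY294002 peak had no vehicle peak. These words name list membership only. The sequences that follow show 3 sites of each class, each the 50 bases to either side of the peak summit plus the summit base, from GRCh37 (hg19), plus strand, 5′ to 3′. Capitals mark the ETS core (AGGAAA or AGGAAG, and likewise CGGAAA or CGGAAG, on either strand) and the forkhead motif (TATTTAC or TGTTTAC on either strand). Shared sites are shown for an intron of SETD4, a protein methyltransferase gene, at chr21:37418435-37418535, an intron of RPTOR, the Raptor subunit of mTORC1, at chr17:78816363-78816463, and a site beside TNFSF10, which encodes the death ligand TRAIL, at chr3:172254392-172254492.
SETD4 shared: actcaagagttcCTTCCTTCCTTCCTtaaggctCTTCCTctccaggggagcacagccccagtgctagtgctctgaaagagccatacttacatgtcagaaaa
RPTOR shared: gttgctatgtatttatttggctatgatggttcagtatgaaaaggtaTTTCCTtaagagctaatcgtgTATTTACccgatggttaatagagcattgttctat
TNFSF10 shared: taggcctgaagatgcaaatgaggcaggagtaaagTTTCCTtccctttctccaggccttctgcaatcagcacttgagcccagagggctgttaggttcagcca

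The lost sites shown are at the promoter of BRI3BP, chr12:125477560-125477660, in an intron of NAV1, a gene of neuronal navigation, chr1:201659329-201659429, and in an intron of LGR6, a receptor of the R-spondin family that marks epithelial stem cells, chr1:202174145-202174245. The LGR6 summit lies in a stretch rich in CA and holds no ETS core in these 101 bases.
BRI3BP lost: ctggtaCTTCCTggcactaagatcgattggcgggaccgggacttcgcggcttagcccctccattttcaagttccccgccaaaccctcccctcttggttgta
NAV1 lost: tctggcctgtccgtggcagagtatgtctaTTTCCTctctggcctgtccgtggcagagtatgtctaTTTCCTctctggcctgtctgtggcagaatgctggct
LGR6 lost: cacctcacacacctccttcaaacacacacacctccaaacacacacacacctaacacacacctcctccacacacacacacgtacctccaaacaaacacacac

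The gained sites shown are in an intron of CRTC1, a coactivator of CREB, chr19:18852536-18852636, in an intron of IRS1, an adaptor that links insulin and IGF receptors to PI3K, chr2:227637418-227637518, and in the gene USP36, a nucleolar deubiquitinase, chr17:76815111-76815211. CRTC1, IRS1 and the shared RPTOR site each hold 1 ETS core and 1 forkhead motif within the 101 bases. The USP36 site holds 3 ETS cores. LGR6, TNFSF10, RPTOR and IRS1 are on the gene lists, and the other sites were chosen for high fold enrichment after their values were seen. The RPTOR and IRS1 sites also stand among the highest of their class by fold enrichment.
CRTC1 gained: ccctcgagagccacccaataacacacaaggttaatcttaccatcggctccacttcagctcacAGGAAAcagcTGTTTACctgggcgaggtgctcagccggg
IRS1 gained: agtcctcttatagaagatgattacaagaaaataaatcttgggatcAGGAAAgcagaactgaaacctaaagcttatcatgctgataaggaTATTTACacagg
USP36 gained: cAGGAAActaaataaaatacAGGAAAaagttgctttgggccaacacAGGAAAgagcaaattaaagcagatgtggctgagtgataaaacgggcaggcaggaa

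Facts of the 2 libraries bear on every count. The header of the LY294002 list gives 34134908 ChIP fragments and 49625893 input fragments. The vehicle list has lost its header, so its depth is not stated. The lowest local background in the vehicle list was 1.23 fragments per base against 1.86 in the LY294002 list, a ratio of 1.51. With the shortest peak as the fragment length, these backgrounds correspond to depths, in units of 1e6 fragments, of 20.6 and 34.3, where the figure for LY294002 can be set beside the 34.1 of its header. Both lists were called at p of at most 0.001, and the lowest pileup of a peak (the fragments stacked at its summit) was 6 for vehicle and 7 for LY294002. At the narrower limit of q of at most 0.01 the lists held 1535 and 4795 peaks. Peaks within 2 Mb of an unsequenced stretch of at least 1 Mb, here called pericentromeric, made up 12.7% of the vehicle and 8.73% of the LY294002 list. The 5 shared peaks of highest significance, with 1808 to 13710.0 vehicle fragments, were of this kind at fold enrichments of only 1.47 to 2.62, and lay nearest to UQCRFS1 (2 peaks), FAM72B, HGSNAT and ZNF33B. So were the 5 most significant gained peaks, nearest to ZNF33B and OR4C46, and 4 of the 5 most significant lost ones, nearest to MTRNR2L1, FAM72B and ENSG00000284209, with the remaining lost peak nearest to USP18. Sites below are therefore ranked by fold enrichment outside these stretches, a choice made after the values were seen.

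Most vehicle ERG peaks were absent from the LY294002 list, and the LY294002 list held many more peaks. Of the 5870 vehicle peaks, 2176 (37.1%, 95% Wilson interval 35.8 to 38.3%) were shared and 3694 (62.9%, 61.7 to 64.2%) were lost. Of the 12985 LY294002 peaks, 2132 (16.4%, 15.8 to 17.1%) were shared and 10853 (83.6%, 82.9 to 84.2%) were gained. The intervals cover counting error only. The LY294002 peaks covered 0.130% of the main chromosomes and the vehicle peaks 0.0542%. With q of at most 0.01 required in both lists, 640 of 1535 vehicle peaks (41.7%, 39.3 to 44.2%) had no partner, and 3909 of 4795 LY294002 peaks (81.5%, 80.4 to 82.6%) had none. When the 5870 strongest peaks of each list were compared, 70.3% of the vehicle and 71.2% of the LY294002 peaks were unshared.

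The lost peaks were mostly weak, and strong vehicle peaks were almost all retained. Outside the pericentromeric stretches, 17.8% (15.7 to 20.0%) of the 1183 vehicle peaks with a −log10 p of 3 to 4 had an LY294002 peak. The share was 54.8% (51.4 to 58.1%) of 851 peaks at 6 to 8, 80.1% (75.4 to 84.1%) of 317 peaks at 8 to 12, and 92.3% (83.2 to 96.7%) of 65 peaks at 12 or more. Retention thus climbed with strength at every step. At a −log10 q of at least 5, 16 of 171 vehicle peaks (9.36%, 5.84 to 14.7%) were lost, and at a −log10 q of at least 8 only 3 of 56 were. Lost peaks had a median pileup of 8.00 fragments and a median width of 201 bp, against 10.0 fragments and 287 bp for shared vehicle peaks.

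**Figure D1:**
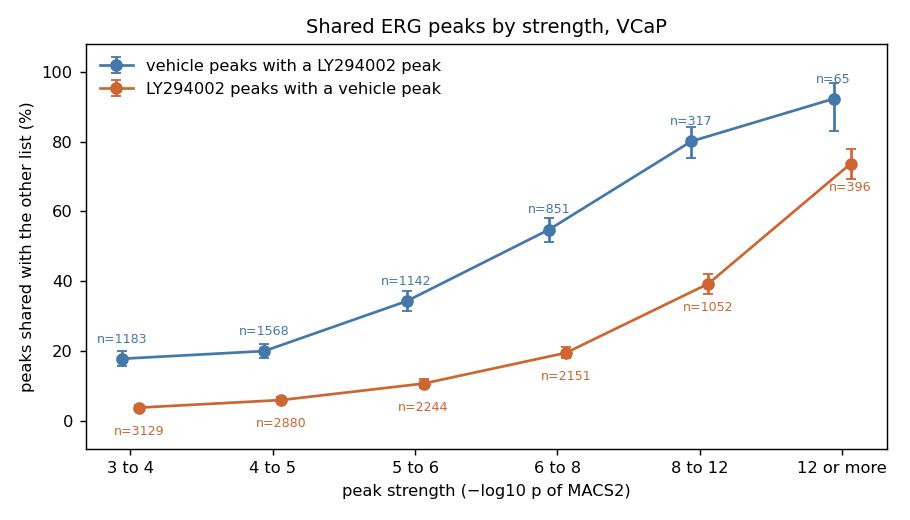
The x axis gives bins of peak strength (−log10 p from MACS2) and the y axis the percentage of peaks that overlapped a peak of the other list, outside pericentromeric stretches. Points are shares with 95% Wilson intervals and the number of peaks; the vehicle series climbs from 17.8% to 92.3% and the LY294002 series from 3.80% to 73.7%.

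Gained peaks included strong ones. Of the 396 LY294002 peaks with a −log10 p of 12 or more outside pericentromeric stretches, 104 (26.3%) had no vehicle peak, and of the 363 with a −log10 q of at least 8, 91 (25.1%, 20.9 to 29.8%) had none. The depth and the treatment of the LY294002 library cannot be told apart with 1 library an arm.

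At shared sites the direction of the median difference between the lists depended on how enrichment was written, and the difference was small beside the spread over sites. Over 1695 shared vehicle peaks outside pericentromeric stretches, the median fold enrichment over input was 4.03 with vehicle and 4.24 with LY294002, and the median log2 ratio of LY294002 to vehicle was 0.10, with a 5th to 95th percentile of -0.62 to 0.86. Where q was at most 0.01 in both lists (595 peaks), the median ratio was 0.03 and 317 peaks (53.3%) were higher with LY294002. Choosing the peaks by 1 list moved this value towards that list, to -0.10 for peaks with q of at most 0.01 in the vehicle list and 0.23 for peaks chosen the same way in the LY294002 list. MACS2 adds 1 to both the pileup and the local background before it divides them, which pulls a fold towards 1 more where the background is low, as in the vehicle list. With nothing added, the median log2 ratio was -0.07 over the 1695 peaks (5th to 95th percentile -0.94 to 0.87) and -0.17 over the 595, of which 212 (35.6%) were then higher with LY294002. Folds of the 2 lists are therefore not on 1 scale, and those given side by side for a site are the deposited values, from which no direction is read. Over the 595 peaks the deposited fold enrichments correlated with a Pearson r of 0.60 on the log2 scale and a Spearman rho of 0.38. Over all 1695 peaks these were 0.38 and 0.29. Each is a correlation across sites of 2 libraries that share the genome's copy number and mappability. Shared peaks were wider with LY294002, with a median of 449 bp against 287 bp, and the paired summits lay a median of 104 bp apart.

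**Figure D2:**
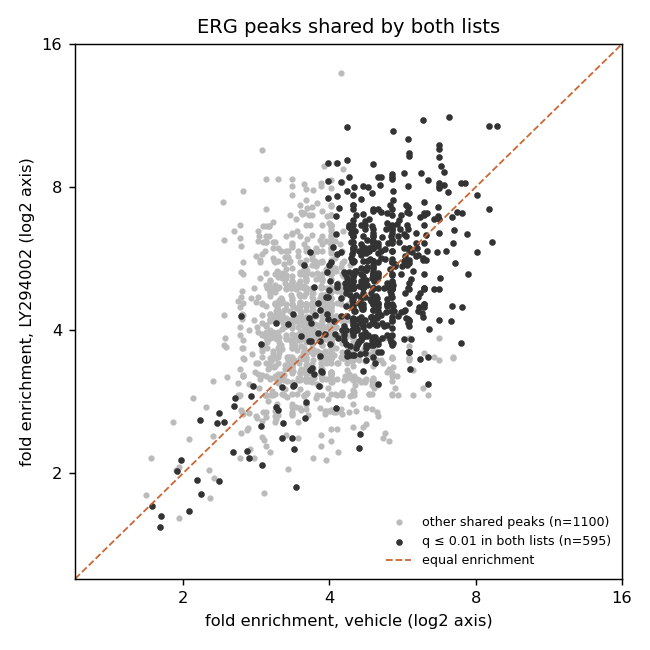
Each point is a shared peak outside pericentromeric stretches, with its deposited fold enrichment over input in the vehicle list on the x axis and in the LY294002 list on the y axis (log2 axes). Dark points are the 595 peaks with q of at most 0.01 in both lists, with medians of 4.90 and 4.92; the cloud lies around the dashed line of equal enrichment, and the FLI1 peak at 13.9 is the highest on the y axis.

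Of the 10 shared peaks with the highest fold enrichment in the vehicle list, 6 lay in introns, 3 at promoters and 1 in intergenic sequence. The SETD4 peak at chr21:37417673-37418678 reached a fold enrichment of 8.83 with vehicle (22.0 fragments) and 10.7 with LY294002 (43.0 fragments). TAPBP, which encodes the peptide-loading chaperone tapasin, had a peak 433 bp from its start, chr6:33266895-33267681, at 8.64 and 6.13. The RPTOR peak at chr17:78816248-78816680, 148985 bp from the gene's start, stood at 8.52 and 10.8. LPP, a focal adhesion protein gene, held an intronic peak at chr3:187946830-187947352 at 8.52 and 7.21, and FERMT2, the gene of the integrin activator kindlin-2, one at chr14:53386676-53387049 at 7.62 and 8.16. Of all 10, which a high vehicle value had chosen, 7 had the higher deposited fold with vehicle and 3 with LY294002.

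The highest fold enrichment of the LY294002 list was at FLI1, the ETS factor most like ERG. The peak at chr11:128680373-128680849 stood at 13.9 (41.0 fragments, −log10 q 34.3), and the vehicle peak it overlaps at 4.23 (10.0 fragments, −log10 q 1.92). Both lie inside a coding exon, chr11:128680354-128680880, and the LY294002 peak starts 19 bp inside the exon's start and ends 31 bp inside its end. A second LY294002 peak, chr11:128642704-128642878 at 4.42, lies in another FLI1 coding exon, from 27 bp inside its start to 2 bp from its end, and has no vehicle partner. Only 39 of the 12985 LY294002 peaks (0.300%) and 22 of the 5870 vehicle peaks (0.375%) shared at least 60% of their joint length with a coding exon, and the next highest fold enrichment among the 39 was 4.80, at PYM1. Whether this signal came from the FLI1 locus itself was not tested. RFLNA, whose product binds filamin, followed in the LY294002 list at 11.2 against 7.06 with vehicle, and an intergenic peak nearest to AGTR1, the angiotensin II receptor gene, stood at 11.1 against 6.22.

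A lost peak has no LY294002 value, so lost sites are given by their vehicle values. The highest stood at 7.62, for an intronic peak of ADARB2, an RNA-editing enzyme homologue, at chr10:1635058-1635500 and for the BRI3BP promoter at chr12:125477342-125477766, each with 16 fragments. NAV1 at chr1:201659195-201659590 and the promoter of LFNG, a glycosyltransferase that modifies Notch, at chr7:2551138-2551362 followed at 7.17. KIF9, a kinesin gene, and MEIG1, a gene of sperm formation, had lost promoter peaks at 6.27 each. Of these 6 sites, all but ADARB2 held an ETS core within 100 bp of the summit. Among other lost peaks at the same 6.27, that of CYBC1 held none, and those of ATP11A, SRSF5 and TULP4 held one.

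Gained sites are likewise given by their LY294002 values. The CRTC1 peak at chr19:18852114-18853231 had 30.0 fragments, a fold enrichment of 10.9 and a −log10 q of 21.6, and it alone of the 10 highest gained peaks overlapped an ERG peak of RWPE1 cells that express ERG and active AKT. An intergenic peak nearest to LRFN2, a synaptic adhesion gene, stood at 9.10. At 8.75, with 24.0 fragments each, stood IRS1 (chr2:227637108-227637811), USP36 (chr17:76814910-76815547), EML6 (chr2:55180016-55180951) and an intergenic peak beside MRO (chr18:48318256-48318884). APCDD1, whose product inhibits Wnt signalling, had an intergenic peak 169120 bp away at 7.83. All 10 held an ETS core within 100 bp of the summit.

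The ETS core was most frequent in shared peaks and least frequent in lost ones. Outside pericentromeric stretches it was found within 100 bp of the summit in 73.7% (71.6 to 75.8%) of 1695 shared, 46.4% (44.8 to 48.1%) of 3431 lost and 57.9% (56.9 to 58.8%) of 10195 gained peaks. Windows of the same length 1 kb to either side held it in 40.8%, 39.5% and 41.7%. Shared exceeded lost by 27.3 percentage points (95% Newcombe interval 24.6 to 29.9), and gained exceeded lost by 11.4 points (9.51 to 13.4). Over all peaks of the main chromosomes the shares were 69.3%, 47.3% and 57.8%. Around the summit the density of cores rose to 8.71 per kb in shared, 4.10 in lost and 5.38 in gained peaks in the 25 bp bin of highest density, from about the same level 500 bp away, where the outermost bins held 3.14, 3.11 and 3.08 per kb.

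**Figure D3:**
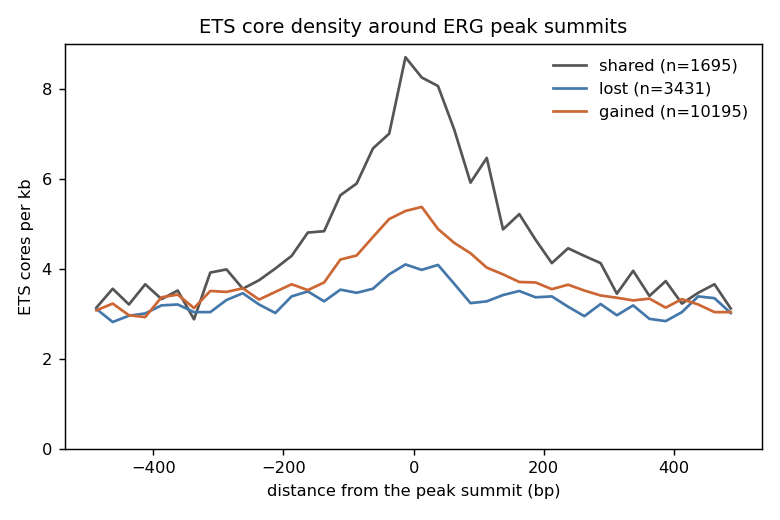
The x axis is the distance from the peak summit in bp and the y axis the number of ETS cores per kb in 25 bp bins, for 1695 shared (vehicle summits), 3431 lost and 10195 gained peaks outside pericentromeric stretches. All lines begin near 3 cores per kb; the shared line rises to 8.71, the gained line to 5.38 and the lost line to 4.10.

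The share of gained peaks with a core climbed with strength, and that of lost peaks did so less. Gained peaks with a −log10 p of 3 to 4 held a core in 49.9% (48.1 to 51.7%) of cases, those at 6 to 8 in 67.5% (65.2 to 69.6%) and those at 12 or more in 90.4% (83.2 to 94.7%). Shared LY294002 peaks at 12 or more held it in 86.6% (82.3 to 90.1%), an interval that overlaps that of the gained peaks. Lost peaks held a core in 42.9% (39.8 to 46.0%) at 3 to 4, 53.5% (48.5 to 58.4%) at 6 to 8 and 50.8% (38.8 to 62.7%) of 63 peaks at 8 to 12. Shared vehicle peaks of the last bin held it in 79.5% (74.1 to 84.0%). In each bin of vehicle strength below 12, the lost peaks held a core less often than the shared peaks, with intervals that did not overlap.

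The forkhead motif was least frequent in lost peaks. FOXA1 and the FOXO factors are forkhead proteins, and FOXA1 is a pioneer factor of prostate luminal cells. TATTTAC or TGTTTAC was found in 15.8% (14.2 to 17.6%) of shared, 8.39% (7.51 to 9.37%) of lost and 13.5% (12.8 to 14.2%) of gained windows, against 6.40% to 7.04% of flanking windows. The motif and an ETS core stood together in 12.4% (11.0 to 14.1%) of shared, 4.14% (3.52 to 4.86%) of lost and 8.52% (8.00 to 9.08%) of gained windows, which is 4.74, 1.68 and 2.86 times the share in their flanks. Gained exceeded lost by 4.39 points (3.49 to 5.22). Among peaks with q of at most 0.01 the forkhead motif was in 15.6% of shared vehicle, 18.1% of shared LY294002, 16.7% of gained and 8.50% of lost windows, and shared LY294002 peaks differed from gained ones by 1.31 points (-1.18 to 3.92). Both motifs stood together in 12.5% of shared vehicle, 15.1% of shared LY294002, 12.3% of gained and 5.50% of lost windows.

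**Figure D4:**
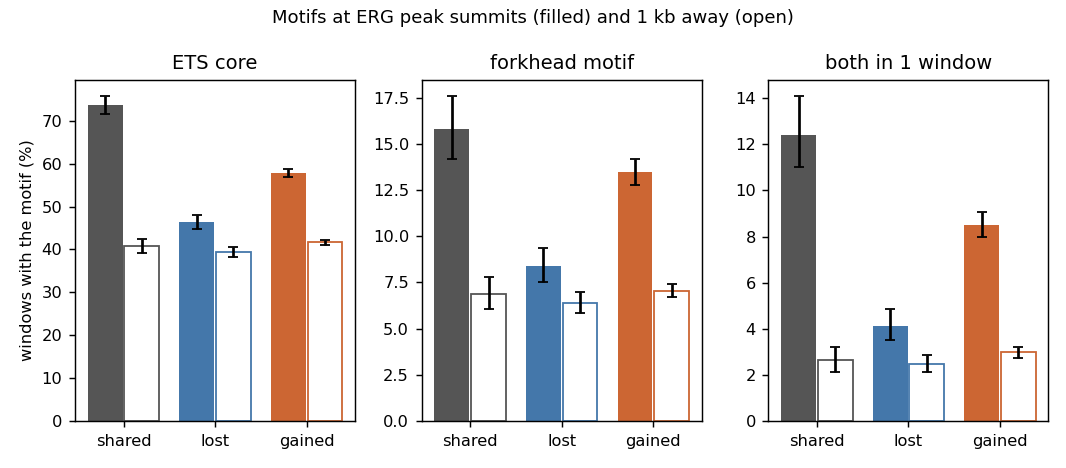
Percentage of windows reaching 100 bp from the summit on each side that hold an ETS core, a forkhead motif, or both (y axis, a scale for each panel), in shared, lost and gained peaks outside pericentromeric stretches. Filled bars are peak windows, open bars windows 1 kb away, and lines 95% Wilson intervals; shared peaks are highest in each panel (73.7%, 15.8% and 12.4%) and lost peaks lowest (46.4%, 8.39% and 4.14%).

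Other motifs were counted in the same windows. The longer ETS sequences AGGAAGTG and CGGAAGTG were in 8.26% of shared, 3.35% of lost and 4.60% of gained windows, against 1.72% to 1.92% of flanks. The AP-1 site TGACTCA or TGAGTCA, at which ETS and JUN/FOS factors can bind together, was in 3.66%, 2.97% and 3.33%, and in 2.91% to 3.27% of flanks, and the interval of each class overlapped that of its flanks. The repeat GGAAGGAA was in 6.49% of shared, 2.42% of lost and 4.10% of gained windows, against 1.91% to 2.43%. TGTTCT, a part of the androgen response element, was in 18.1%, 13.8% and 17.8%, against 14.7% to 15.1%. A full androgen response element was found in 2 shared, 0 lost (Wilson upper bound 0.112%) and 4 gained windows. These motifs can overlap the core, and a match is only a match of letters.

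Most peaks of every class lay away from promoters. Within 1 kb of the start of a protein-coding gene lay 11.2% (9.91 to 12.6%) of shared, 8.99% (8.11 to 9.95%) of lost and 8.76% (8.25 to 9.31%) of gained peaks. Shared exceeded lost by 2.18 points (0.596 to 3.83), but with q of at most 0.01 in both lists the difference was -2.40 points (-5.79 to 0.854). Outside pericentromeric stretches introns held 41.5% of shared, 43.8% of lost and 46.0% of gained peaks, and intergenic sequence 40.0%, 41.5% and 40.3%.

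The sites retained in VCaP were also those most often bound or open in RWPE1 lines, which derive from normal prostate epithelium. Outside pericentromeric stretches an ERG peak of RWPE1 cells with ERG and active AKT lay at 84 of 1695 shared peaks (4.96%, 4.02 to 6.09%), 25 of 3431 lost peaks (0.729%, 0.494 to 1.07%) and 146 of 10195 gained peaks (1.43%, 1.22 to 1.68%). A site open in at least 1 of 3 RWPE1 lists (cells with ERG, with active AKT or with both) lay at 37.1% (34.8 to 39.4%) of shared, 17.7% (16.5 to 19.1%) of lost and 18.2% (17.4 to 18.9%) of gained peaks. With pericentromeric peaks the shared figure was 45.9%. Among peaks with q of at most 0.01 outside these stretches, the open shares were 42.6% of shared, 30.5% of lost and 24.6% of gained peaks. Shared peaks were also wider, with a median of 287 bp against 201 bp for lost and 211 bp for gained peaks. The part of peak width and strength in these overlaps was not tested. No open chromatin list of VCaP cells was used here, so openness in VCaP itself is unknown.

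Each peak, pericentromeric ones included, was assigned to its nearest protein-coding gene of GENCODE. Of 20090 genes, 977 (4.86%) were nearest to a vehicle peak and to no LY294002 peak, 3260 (16.2%) to an LY294002 peak and to no vehicle peak, and 2443 (12.2%) to peaks of both lists. Restricted to q of at most 0.01, 1041 genes (5.18%) had a vehicle peak and 2846 (14.2%) an LY294002 peak. Long genes and genes in wide gaps can collect more peaks, so the counts that follow are given beside these shares and the median gene span of 27.3 kb, and are no test of the lists.

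**Figure D5:**
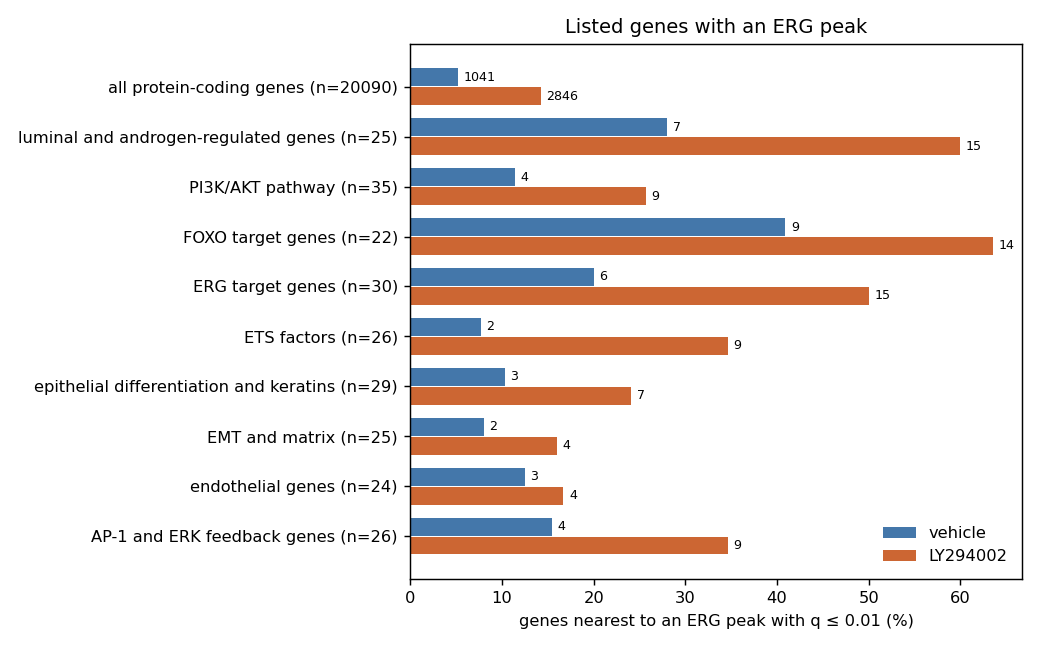
Percentage (x axis) of the genes of each list (y axis, with the number of genes matched) that were nearest to an ERG peak with q of at most 0.01 in the vehicle list and in the LY294002 list; figures at the bars are gene counts. All protein-coding genes stand at 5.18% and 14.2%, and the FOXO target genes are highest in both lists, at 40.9% and 63.6%.

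Genes known as targets of the FOXO factors, which AKT restrains, had ERG peaks in both arms. Of 22 genes (median span 35.4 kb), 14 (63.6%) were nearest to peaks of both lists, 3 (13.6%) to LY294002 peaks alone and 0 to vehicle peaks alone. The same shares of all genes were 12.2%, 16.2% and 4.86%. At the q limit of 0.01, 9 of the 22 (40.9%) had a vehicle peak and 14 (63.6%) an LY294002 peak, against 5.18% and 14.2% of all genes. The TNFSF10 site (chr3:172253991-172254907 with LY294002) stood at a fold enrichment of 5.38 with vehicle and 8.32 with LY294002. BCL6, a transcriptional repressor gene, had an intronic site (chr3:187457084-187457523 with LY294002) at 4.48 and 7.35. PDK4, a kinase gene that restrains glucose oxidation, had a site 13412 bp from the gene at 5.21 and 5.64, CAT, the catalase gene, one at 4.82 and 5.88, and the CCNG2 promoter, of an atypical cyclin, one at 5.22 and 4.37.

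Some FOXO targets had several gained peaks, not all of which passed q of at most 0.01. TXNIP, which encodes an inhibitor of glucose uptake, had 4 LY294002 peaks, all gained, with the highest at chr1:145435037-145435377 (7.18, −log10 q 10.5), 3288 bp from the gene start, and a further one 754 bp from it at 5.25. Its single vehicle peak stood at 4.03, under the limit of q of at most 0.01, and overlapped none of them. CITED2 had 10 gained peaks with a maximum of 5.18, the 3 with q of at most 0.01 lying 586697 to 1019327 bp from the gene, and its 1 vehicle peak stood at 3.59. KLF6 had 9 gained peaks, of which 0 passed q of at most 0.01, and 1 shared site at 4.48 and 5.28 that did so in both lists.

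Genes of the PI3K pathway itself are given beside all genes, and the LY294002 list held peaks of more genes overall. Of 35 genes, which are long (median span 92.0 kb), 7 (20.0%) were nearest to peaks of both lists. A further 9 (25.7%) were nearest to LY294002 peaks alone and 2 (5.71%, PIK3CB and EGFR) to vehicle peaks alone. The same shares of all genes were 12.2%, 16.2% and 4.86%. Counting only peaks with q of at most 0.01, 4 genes had a vehicle peak (RPTOR, IRS2, IGF1R and PIK3R1) and 9 (25.7%) an LY294002 peak, against 5.18% and 14.2% of all genes. IRS1 had 6 LY294002 peaks and 0 vehicle peaks, led by the intronic site at 8.75. GSK3B, a kinase that AKT inhibits, had 4 LY294002 peaks and 0 vehicle peaks, the highest 985 bp from its start at 5.95. FOXO3 had 3 gained peaks with a maximum of 4.55.

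The neighbourhood of IRS2, the other insulin receptor substrate, held 10 vehicle and 22 LY294002 peaks, 18 of them gained. The site at chr13:110239039-110239678 in the vehicle list, 165773 bp from the gene, stood at 4.46 with vehicle (32.0 fragments) and 6.46 with LY294002 (72.0 fragments). A second at chr13:110320120-110320670 stood at 4.28 and 5.31. Local background was high here in both arms, at 6.39 fragments per base under the first vehicle peak and 10.3 under its LY294002 partner, against the genome's 1.23 and 1.86. The part of local DNA copy number in the count of peaks at IRS2 was not tested. PIK3R1, the p85-alpha regulatory subunit of PI3K, had 8 vehicle and 5 LY294002 peaks, with a shared site at 4.69 and 4.43, and IGF1R had 5 and 13.

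Of 26 ETS genes, 2 had a vehicle peak with q of at most 0.01 (ETV1 and ELK4) and 9 (34.6%) an LY294002 peak, against 5.18% and 14.2% of all genes. ERG had 5 intronic LY294002 peaks and 0 vehicle peaks, led by chr21:39818768-39818955 at 5.28 and chr21:39942480-39942643 at 5.60, neither of which is exonic. ETV6 had a gained promoter peak at chr12:11802126-11802322 at 6.07, and ETS2 a gained intergenic peak at 5.95. ETV1 had a site 468698 bp away in both lists, at 4.64 and 5.25. ELK4 lost a promoter peak at chr1:205600325-205600548, at 4.93 with vehicle, and EHF, an epithelial ETS gene, had 2 vehicle peaks with a maximum of 3.59 and 0 LY294002 peaks.

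Of 25 matched luminal and androgen-regulated genes, 12 (48.0%) were nearest to peaks of both lists, 5 to LY294002 peaks alone and 0 to vehicle peaks alone. Restricted to q of at most 0.01 these were 7 (28.0%) with vehicle and 15 with LY294002, against 5.18% and 14.2% of all genes. Within 20 kb of KLK2, a kallikrein gene beside KLK3, lay 2 vehicle and 9 LY294002 peaks, of which 1 site was shared. The highest stood at 4.18 in a KLK2 intron and at 4.15 at 3988 bp from KLK3. TMPRSS2 had 6 vehicle peaks, 4 of them lost, and 7 LY294002 peaks, 5 of them gained. Its highest vehicle peak, chr21:42878503-42878750 at 5.32, was lost, and its highest LY294002 peak, chr21:42872573-42873210 at 4.58, was gained.

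Of 30 genes that earlier work ties to ERG, 12 (40.0%) were nearest to peaks of both lists, 11 (36.7%) to LY294002 peaks alone and 1 (3.33%, TP63) to vehicle peaks alone. The same shares of all genes were 12.2%, 16.2% and 4.86%. At the q limit of 0.01, 6 of the 30 (20.0%) had a vehicle and 15 (50.0%) an LY294002 peak, against 5.18% and 14.2% of all genes. PLAT, the tissue plasminogen activator gene, had a shared site at 5.03 and 4.40 that lies in a pericentromeric stretch. CACNA1D, a calcium channel gene, had one at 5.47 and 5.46. TDRD1, a germ cell gene, had a gained promoter peak at chr10:115938583-115938896 at 5.22, 247 bp from its start. HDAC1 had an intronic gained peak at 6.30, and CRISP3 a gained promoter peak at 4.30 beside a shared one at 2.96 and 3.41.

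The 3 genes that the study picked as examples from these libraries, FEM1B, LGR6 and FN1, had weak or single peaks, and they are no independent evidence of a direction. The paper names them as genes with ERG sites close by without the inhibitor and none under it. In the lists used here only LGR6 had that pattern within 20 kb. LGR6 had 1 vehicle peak, chr1:202173836-202174557, at a fold enrichment of 4.69 (13.0 fragments, −log10 q 3.27), and no LY294002 peak lay within 20 kb of the gene. FN1, fibronectin, had a vehicle peak at chr2:216267751-216267916 with 6.00 fragments (3.14, −log10 q 0.246) and an LY294002 peak at another site, chr2:216288088-216288254, with 8.00 fragments (2.94, −log10 q 0.508). FEM1B had no vehicle peak within 20 kb and 1 LY294002 peak, chr15:68571148-68571301 (3.04, −log10 q 0.624). Of the 3 genes, only the LGR6 peak passed q of at most 0.01.

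Across the whole epithelial list of 29 matched genes, 3 (10.3%, LGR6, KRT5 and TP63) were nearest to vehicle peaks alone, 7 (24.1%) to LY294002 peaks alone and 9 to peaks of both. The same shares of all genes were 4.86%, 16.2% and 12.2%. Counting only peaks with q of at most 0.01 the counts were 3 (10.3%) with vehicle and 7 (24.1%) with LY294002, against 5.18% and 14.2% of all genes. KRT5, a basal keratin gene, had its 1 vehicle peak at 3.58. KRT8, a luminal keratin gene, had a gained promoter peak at chr12:53343383-53343863 at 4.27, JUP, plakoglobin, a gained intronic peak at chr17:39933851-39934101 at 5.25, and KLF4 11 LY294002 peaks with a maximum of 6.45 at a shared site that stood at 3.43 with vehicle. OVOL1, an epithelial repressor gene, had a shared intronic site at 3.97 with vehicle and 2.87 with LY294002.

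Matrix, endothelial and AP-1 and ERK feedback genes completed the lists. Of all genes, 5.18% had a vehicle and 14.2% an LY294002 peak with q of at most 0.01. The LY294002 shares of the matrix and endothelial lists lay close to that 14.2%, and their vehicle shares, above the 5.18%, rest on 2 and 3 genes. Of 25 genes of mesenchymal transition and matrix, 2 had a vehicle and 4 an LY294002 peak with q of at most 0.01, with SPARC, a matrix glycoprotein gene, sharing an intronic site at 4.73 and 6.52, and a lost site at 5.38 lying 80084 bp from TWIST2. Of 24 matched endothelial genes, the normal setting of ERG, these were 3 and 4 (16.7%), with shared sites nearest to NRP1, a VEGF co-receptor gene (4.82 and 6.85), FLT1, a VEGF receptor gene (4.48 and 5.25), and CLDN5 (4.89 and 6.16). Of 26 AP-1 and ERK feedback genes, 4 (15.4%) had a vehicle and 9 (34.6%) an LY294002 peak. DUSP6, an ERK phosphatase gene, had 6 vehicle and 5 LY294002 peaks. Its LY294002 promoter peak at chr12:89746025-89746986 stood at 4.90 and lay at an ERG peak of RWPE1-ERG/mAKT cells. It overlapped vehicle peaks at 4.93 and 4.03, and the vehicle peak at 4.93 did not lie at that RWPE1 peak.

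Lost and gained peaks were spread over all chromosomes. Outside pericentromeric stretches the share of vehicle peaks lost ranged from 56.0% (42.3 to 68.8%) of 50 on X to 82.1% (67.3 to 91.0%) of 39 on chromosome 16, and the share of LY294002 peaks gained from 81.6% to 90.4%, on chromosomes 9 and 2. LY294002 peaks outnumbered vehicle peaks on each chromosome, by 1.69 times on chromosome 16 to 4.21 times on chromosome 2. Among the genes with the most gained peaks were ZNF608 (18 of 22 LY294002 peaks), IRS2 (18 of 22), LIMCH1 (15 of 16) and PRKD1, a protein kinase D gene (15 of 16, against 1 vehicle peak). TRIM51G, with 20 gained of 26, belongs to a family of near-identical copies, so its reads cannot be placed with certainty. The genes with the most lost peaks were FOXD4L5 (11 of 18) and TRIM51G (10 of 16), with SERF1A (9 of 10) and GTF2H2 (8 of 8) also among duplicated genes. Outside such families stood, among others, NFIB (9 of 11 vehicle peaks, against 11 LY294002 peaks) and GRHL2, an epithelial transcription factor gene (7 of 9, against 6 LY294002 peaks). At q of at most 0.01 GRHL2 had 1 vehicle and 4 LY294002 peaks.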

How the data were processed

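ERG ChIP-seq of VCaP cells was analysed from peak lists that the authors deposited. Per the methods, reads were aligned with Bowtie2 to hg19, blacklisted regions and duplicates were removed, and peaks were called with MACS2 against input at p of at most 0.001 on DNA pooled from 3 ChIP experiments. The 2 lists still held pericentromeric peaks with up to 13710.0 vehicle and 17911 LY294002 fragments at 1 site. Whether both removal steps were applied to these lists was not tested. The LY294002 header names MACS2 2.2.7.1 with paired ends, and the vehicle list holds no header. The methods instead give single-end sequencing for all samples. Whether a fragment means the same in both lists is therefore unknown, which bears on pileup, width and depth. The deposited pileup is a signal (fragments stacked at the summit). The deposited fold enrichment is a ratio of pileup to the local background that MACS2 estimates from the input, with 1 added to both, so it is pulled towards 1 more in the list of lower background, and the local background was recovered from it. The deposited −log10 p and −log10 q are those of MACS2, where a −log10 q of 2 is q of 0.0100.

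Of 6143 vehicle and 13295 LY294002 peaks, 272 and 310 lay on other sequences than the 23 main chromosomes, and 1 damaged vehicle line was dropped. Overlaps, windows reaching 100 bp from the summit on each side, flanks 1 kb away and nearest genes were computed in Python 3.11.15 with pandas 2.3.3, numpy 2.4.6 and pysam 0.24.0 on the GRCh37 sequence and GENCODE genes. Overlaps were checked against bedtools 2.31.1, and the overlap, motif and interval code was tested on simulated data. Shares carry 95% Wilson intervals and differences Newcombe intervals. With 1 library per condition no test was made. Of 229 genes in 9 lists, 226 matched the annotation, and lists share genes such as IRS2 and MYC.

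The comparison, the peaks and the gene lists were chosen with earlier results of these data known. Named peaks were the 5 of highest −log10 p in each class, with and without tandem repeats, those within 20 kb of FEM1B, LGR6 and FN1, and those with q of at most 0.01 nearest to a listed gene. Peaks ranked by fold enrichment, and those near ERG, FLI1, TMPRSS2, KLK2, KLK3 and IRS1, were added after values were seen, as were listed genes named with no peak past that limit. Some listed genes are not reported here by name. RNA, histone mark and ERK2 files of RWPE1 lines were not used here. Alternatives were a q limit, equal list lengths, other overlaps, windows and gene distances, leaving out tandem repeats or pericentromeric peaks, and fold enrichment with nothing added.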

Additional observations from a re-analysis of the deposited data

How the results depend on the processing

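The share of vehicle peaks lost, 62.9%, and of LY294002 peaks gained, 83.6%, moved with how a peak and an overlap were defined. They were 41.7% and 81.5% with q of at most 0.01 in both lists, 29.9% and 66.6% with that limit in the counted list only, 70.3% and 71.2% with the 5870 strongest peaks of each list, 67.2% and 85.5% when at least 50% of the shorter peak had to overlap, 53.3% and 75.6% when peaks within 1 kb counted as shared, 61.5% and 82.4% with the other sequences added, and 66.9% and 86.0% without pericentromeric peaks, an alternative chosen after seeing the data. The excess of ETS cores in shared over lost peaks, 22.0 percentage points, was 10.9 with q of at most 0.01, 18.9 in windows of 50 bp and 27.3 without pericentromeric peaks. That over gained peaks, 14.7 points, was 4.44 with q of at most 0.01, 8.12 at equal list length and 19.7 without pericentromeric peaks. Both kept their direction throughout. The promoter excess did not. Shared minus lost, 2.18 points, was -2.40 with q of at most 0.01, -3.53 for gene starts within 5 kb and 4.57 without pericentromeric peaks. Shared minus gained, 2.31 points, was -1.93 within 5 kb, 0.881 at equal list length and 4.98 without pericentromeric peaks. The cause was not tested. The median log2 ratio of fold enrichment at shared peaks, LY294002 over vehicle, was 0.10 as deposited and -0.07 with nothing added to pileup and background, and 0.03 and -0.17 where q was at most 0.01 in both lists, an alternative chosen after seeing the data.

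With q of at most 0.01, 293 genes had a peak in the vehicle list only, 2098 in the LY294002 list only and 748 in both. The shares at an RWPE1-ERG/mAKT ERG peak were then 5.03% of shared, 2.03% of lost and 2.53% of gained peaks, and at open chromatin 57.8%, 34.5% and 28.3%. With peaks within 1 kb counted, they were 6.16%, 2.44% and 3.21%, and 53.2%, 32.8% and 32.9%. Without pericentromeric peaks the shared shares were 4.96% and 37.1%, and the gained share at open chromatin 18.2%. Of 63 alternatives over 17 results, 17 stayed within the counting interval or 1.5 times the count. Without pericentromeric peaks and by nearest gene start, the 3 gene counts were among these.

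No paired analysis was possible because each condition has 1 library, which also left none to leave out. The unstated vehicle depth, the label conflict of the LY294002 list and the single library per arm limit each difference between lists, and peaks of 6 to 8 fragments are near the limit of detection.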
